A study of Mesocricetus auratus with 36 samples.

Results

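Cryab, Hspb1 and Hsf2 were followed through a hibernation season in the hypothalamus of the golden hamster (Mesocricetus auratus). The 3 genes were taken by name from the gene counts of 36 libraries, and they are 3 of the 32340 genes counted and 3 of the 17926 that had enough reads to be tested. They were chosen by their counts in these libraries, which were high on short, cold days, so every difference from long-photoperiod or pre-hibernation animals is given below as a description, with no test. Which short-day groups entered the choice is not stated.

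Each library came from 1 male animal, from the ependymal strip around the third ventricle, enriched for tanycytes by laser capture, and each of the 6 groups held 6 animals. The long-photoperiod animals had 14 h of light a day at 22 °C; they are labelled 8 months old, though the protocol places their sampling at both the start and the end of the experiment. All other animals had 10 h of light at 8 °C, with food at will. The pre-hibernation animals (4 months old) were taken after 4 weeks of short photoperiod. The late pre-hibernation animals (6 months) were taken after 8 to 12 weeks, before any torpor. The interbout euthermic animals (6 months) had gone through 3 torpor-arousal cycles and were taken warm, 23 h into the warm phase. The torpid animals (6 months) had done the same and were taken cold, 13 h into torpor. The refractory animals (8 months) had ended hibernation on their own after about 20 weeks of short photoperiod and were taken at least 2 weeks after the last bout. All animals carried an implanted temperature logger. Day length, temperature and, for most groups, age differ together from the long-photoperiod animals, so their parts cannot be told apart.

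Cryab (alpha-B-crystallin) and Hspb1 belong to the small heat shock proteins, chaperones that bind unfolding proteins without using ATP and hold them until HSP70 and its partners can refold them. They assemble into large oligomers, are phosphorylated by kinases of the p38 route, and bind filaments of the cytoskeleton. In the brain Cryab is best known from glia. Hsf2 is one of the heat shock factors, the transcription factors that bind heat shock elements in chaperone genes; Hsf1 is the family member known for the acute response to heat. Tanycytes are elongated glial cells that line the floor of the third ventricle and take part in seasonal thyroid hormone control.

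The 3 genes lie on different contigs of the assembly BCM_Maur_2.0 and are annotated as protein-coding. Cryab spans bases 29418088 to 29421372 of its contig on the plus strand, with 3 exon blocks. Hspb1 spans 25839751 to 25841379 on the plus strand of another contig, also with 3 exon blocks. Hsf2 spans 14160933 to 14184257, again on the plus strand, with 14 exon blocks. No exon of another annotated gene overlaps any of the 3, so the unstranded counting does not mix their reads with those of a neighbour's annotated exons. Reads from unannotated ends of neighbouring genes were not examined.

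The libraries held 5161108 to 28541745 counts. In 33 of them ribosomal RNA genes took under 1% of the counts, and 3 stood apart: refractory animal 4 (41.8%, and the smallest library), pre-hibernation animal 5 (9.28%) and interbout animal 6 (7.21%). Cryab had between 979 and 41114 counts in a library, Hspb1 between 72 and 5822, and Hsf2 between 86 and 2488, the lowest of each in refractory animal 4. All 15 tanycyte markers listed were detected in every library, and Rax, a transcription factor that marks tanycytes, averaged 64.9 to 154 CPM (read counts scaled to the normalised library total) in the 6 groups. The strip is a mixture of cells: fewer cells of a type and less RNA per cell cannot be told apart.

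Cryab was the most abundant of the small heat shock protein genes in reads per kilobase of exon. In long-photoperiod animals it ran from 227 to 341 CPM (median 318). After 4 weeks of short photoperiod the range was 879 to 1580.3 CPM (median 1495), and every animal lay above every long-photoperiod animal. Late pre-hibernation animals held 783 to 1608 CPM (median 1218), interbout animals 645 to 1093 (median 994) and torpid animals 506 to 1653 (median 1118). In these 4 groups the lowest of the 24 animals was still above the highest long-photoperiod animal. Of all genes tested, 2.15% lay wholly above long photoperiod at 4 weeks, and the share was 2.8% before the first torpor, 1.45% between bouts and 3.65% in torpor. Refractory animals had 272 to 572 CPM (median 319.6), on short and cold days like the others, and 4 of the 6 lay within the long-photoperiod range. In order of the means, pre-hibernation (1323 CPM) was followed by late pre-hibernation (1242), torpor (1108), interbout euthermia (935), refractory (367) and long photoperiod (298). Only the step between interbout euthermia and the refractory state was larger than the larger SD of the 2 neighbouring groups, which did not overlap.

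**Figure D1:**
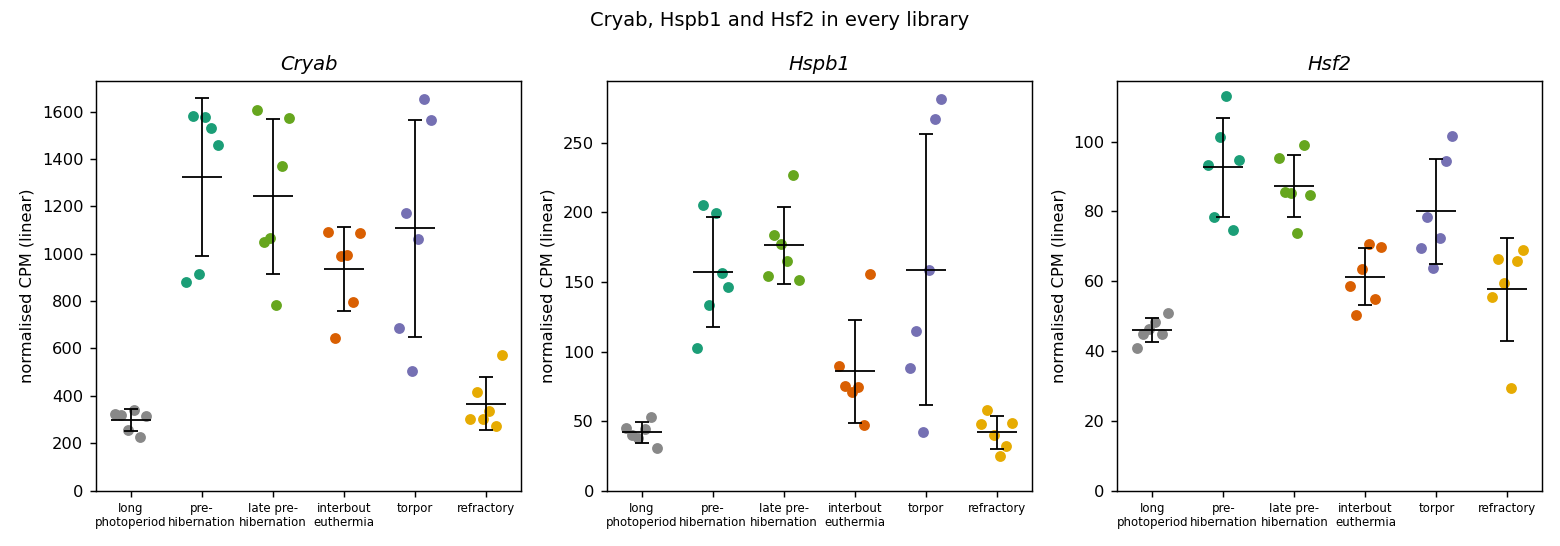
Normalised CPM (linear axes, from 0) of Cryab, Hspb1 and Hsf2 in all 36 libraries by group; points are animals, bars the mean and SD of 6. For Cryab the 4 groups between long photoperiod and the refractory state lie at 506 CPM or more, and the refractory animals at 572 CPM or less, next to long photoperiod.

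Hspb1 followed the same outline at a lower level. Per kilobase of exon, Cryab averaged 926 CPM and Hspb1 121.5 CPM over all libraries. In long-photoperiod animals Hspb1 ran from 30.9 to 53.2 CPM (median 42.1). Pre-hibernation animals held 102 to 206 CPM (median 151) and late pre-hibernation animals 152 to 227 CPM (median 171). These 12 animals were all above the long-photoperiod range, where 2.15% of all genes tested lay in pre-hibernation and 2.8% in late pre-hibernation animals. The interbout animals were lower, at 47.4 to 156 CPM (median 75.0), and the highest of them was the rRNA-rich animal 6, with the next at 89.8 CPM. The torpid animals spread from 41.8 to 282 CPM (median 137), wider than in any other group. The refractory animals, at 24.7 to 57.6 CPM (median 44.1), reached past the long-photoperiod range at both ends. The order of the means was late pre-hibernation (176), torpor (159), pre-hibernation (157), interbout euthermia (85.7), then long photoperiod (41.95) and refractory (41.86). The first 3 differed by less than their spread, and so did the last pair. The steps on either side of interbout euthermia were larger than the larger SD of the groups compared, with overlapping animals in each case.

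Hsf2 changed less, on a narrower spread. Long-photoperiod animals held 40.98 to 50.9 CPM (median 45.6). Pre-hibernation animals held 74.7 to 113 CPM (median 94.0), late pre-hibernation animals 73.7 to 99.1 CPM (median 85.5) and torpid animals 63.7 to 102 CPM (median 75.3). In these 3 groups no animal reached down to the long-photoperiod range. Of all genes tested, 2.15% lay wholly above it in pre-hibernation, 2.8% in late pre-hibernation and 3.65% in torpid animals. Interbout animals, at 50.3 to 70.6 CPM (median 61.02), and refractory animals, at 29.5 to 69.1 CPM (median 62.8), lay between. The refractory low of 29.5 CPM was the rRNA-rich animal 4, which had 86 Hsf2 counts. The order was pre-hibernation (92.6), late pre-hibernation (87.3), torpor (80.0), interbout euthermia (61.2), refractory (57.6) and long photoperiod (46.01). Of these steps only that from torpor to interbout euthermia exceeded the larger SD, and the animals of those groups overlapped.

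Against long photoperiod, the difference was 4.45-fold for Cryab in pre-hibernation animals (1323 ± 334 CPM, against 298 ± 44.9 CPM in long photoperiod; SD, n = 6 each). Hspb1 was at 157 ± 39.6 CPM in pre-hibernation animals and 41.9 ± 7.59 CPM in long-photoperiod animals, a ratio of 3.75. Hsf2 was at 92.6 ± 14.3 CPM in pre-hibernation animals and 46.01 ± 3.40 CPM in long-photoperiod animals, a ratio of 2.01. For all 3 the groups did not overlap, which held for 2.15% of all genes tested in the higher direction. With only long-photoperiod animals 1 to 3 or only 4 to 6, whose files follow different naming patterns, the log2 difference of Cryab was 2.12 or 2.16, that of Hspb1 1.92 or 1.86, and that of Hsf2 1.06 or 0.94.

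The other short-photoperiod groups share the long-photoperiod animals as their reference, and their values are set side by side. Late pre-hibernation animals had log2 differences from long photoperiod of 2.06 ± 0.24 (SE) for Cryab, 2.07 ± 0.30 for Hspb1 and 0.92 ± 0.14 for Hsf2. Torpid animals had 1.90 ± 0.23 for Cryab, 1.92 ± 0.30 for Hspb1 and 0.80 ± 0.14 for Hsf2. Interbout animals had 1.65 ± 0.23 for Cryab, 1.03 ± 0.29 for Hspb1 and 0.41 ± 0.14 for Hsf2. In refractory animals the differences were 0.30 ± 0.23 for Cryab, 0.01 ± 0.29 for Hspb1 and 0.34 ± 0.14 for Hsf2. Between late and early pre-hibernation they were -0.09, 0.16 and -0.09, each smaller than its SE.

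Comparisons among late pre-hibernation, interbout, torpid and refractory animals were tested. The genes were chosen with results of all these libraries known, so the p-values are no independent support for them. All 3 genes fell in refractory animals relative to late pre-hibernation animals, where 5.39% of all genes tested passed and 2.45% passed in the lower direction. Cryab was at 367 ± 112 CPM in refractory animals, against 1242 ± 328 CPM in late pre-hibernation animals (log2 difference -1.76 ± 0.23 SE, adjusted p = 7.4e-05). Hspb1 was at 41.9 ± 12.1 CPM in refractory animals, against 176 ± 27.6 CPM in late pre-hibernation animals (-2.06 ± 0.30, adjusted p = 0.000164). Hsf2 was at 57.6 ± 14.7 CPM in refractory animals, against 87.3 ± 8.95 CPM in late pre-hibernation animals (-0.58 ± 0.14, adjusted p = 0.0145). All 6 refractory animals lay below all 6 late pre-hibernation animals for each gene, which held for 1.42% of genes. The Hsf2 difference had an adjusted p of 0.173 when these 12 libraries were fitted alone, at the same size (-0.59).

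Relative to torpid animals all 3 genes fell in refractory animals too, in a comparison where 15.2% of all genes passed and 6.11% did so in the lower direction. The log2 difference was -1.59 ± 0.23 for Cryab (adjusted p = 1.35e-05) and -1.91 ± 0.30 for Hspb1 (adjusted p = 4.66e-05). For Cryab 5 of 6 refractory animals lay below all torpid animals, and for Hspb1 3 of 6 did. The Hsf2 difference, -0.46 ± 0.14 (adjusted p = 0.0225), did not pass without refractory animal 4 (-0.32, adjusted p = 0.0641), torpid animal 5 (-0.40, 0.0679) or torpid animal 6 (-0.38, 0.0828), or when the 2 groups were fitted alone (-0.47, 0.163).

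Relative to interbout animals only Cryab fell in refractory animals without depending on single libraries. Cryab was at 367 ± 112 CPM in refractory animals and 935 ± 178 CPM in interbout animals (-1.35 ± 0.23, adjusted p = 0.00177), where 3.5% of genes passed and 1.47% passed lower. The animals did not overlap, which held for 0.937% of genes in that direction. Hspb1, at 41.9 CPM in refractory animals and 85.7 ± 37.1 CPM in interbout animals, passed narrowly (-1.02 ± 0.29, adjusted p = 0.0458). When single libraries were omitted in turn it missed the threshold in 9 of 12 refits, with adjusted p from 0.0362 to 0.122 over the 12; those 9 left out refractory animal 1, 3, 4 or 5 or interbout animal 1, 2, 3, 4 or 6. Without the 3 rRNA-rich libraries Hspb1 was at 45.3 ± 9.66 CPM in 5 refractory animals and 71.6 ± 15.3 CPM in 5 interbout animals (-0.66, adjusted p = 0.224). Hsf2, at 57.6 CPM in refractory and 61.2 CPM in interbout animals, did not pass (-0.07 ± 0.14, adjusted p = 0.812), and its sign turned without the rRNA-rich libraries (0.09).

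Across the torpor cycle itself the calls depended on which libraries were fitted. With all libraries, none of the 3 genes passed between interbout and late pre-hibernation animals, where no gene of the 17926 did with edgeR (1104 at an unadjusted p under 0.05, and 33 with DESeq2). The log2 differences were -1.04 ± 0.29 for Hspb1 (adjusted p = 0.335), -0.51 ± 0.14 for Hsf2 (adjusted p = 0.310) and -0.41 ± 0.23 for Cryab (adjusted p = 0.893). All 6 interbout animals had less Hsf2 than all late pre-hibernation animals, which held for 0.368% of genes, and 5 of 6 had less Hspb1. Without the 3 rRNA-rich libraries 153 genes (0.855%) passed, 79 of them lower (0.441%), and Hspb1 (-1.30, adjusted p = 0.0358) and Hsf2 (-0.56, adjusted p = 0.0111) were among them. Cryab was not (-0.46, adjusted p = 0.453). Leaving out any 1 library of the 2 groups brought none of the 3 past the threshold (adjusted p from 0.0609 for Hspb1 and 0.147 for Hsf2). DESeq2 on all libraries called Hsf2 alone of the 3 (-0.51, adjusted p = 0.0433).

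Between torpid and interbout animals the pattern was the same with the sign turned. The same interbout libraries enter this comparison and the one with late pre-hibernation animals, so they are not independent. Hspb1 was at 159 ± 97.4 CPM in torpid animals and 85.7 ± 37.1 CPM in interbout animals (0.89 ± 0.29, adjusted p = 0.0799), and Hsf2 at 80.0 ± 15.0 CPM in torpid animals and 61.2 ± 8.17 CPM in interbout animals (0.39 ± 0.14, adjusted p = 0.120). Neither passed, where 4.06% of genes did (1.13% higher). Both passed without the rRNA-rich libraries (Hspb1 1.13, adjusted p = 0.0139; Hsf2 0.41, adjusted p = 0.011), where 8.94% of genes did (3.32% higher), and with DESeq2 (adjusted p = 0.0317 and 0.0445). Leaving out interbout animal 6, torpid animal 1 or torpid animal 3 alone also brought Hspb1 past the threshold. Cryab differed by 0.25 ± 0.23 (adjusted p = 0.693), and did not pass under any alternative run (adjusted p from 0.425). Between torpid and late pre-hibernation animals, where 4.45% of genes passed, none of the 3 did; the log2 differences were -0.16 for Cryab, -0.15 for Hspb1 and -0.13 for Hsf2 (adjusted p from 0.757 to 0.885). The sign for Hspb1 turned without torpid animal 3 (0.04).

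The torpid animals differed from each other, and several of these genes had the same animals at the ends of their range. Torpid animal 3 had the lowest Cryab (506 CPM), Hspb1 (41.8 CPM) and Hsf2 (63.7 CPM) of the group, and torpid animal 1 the second lowest of each. Torpid animals 5 and 6 had the highest, with Cryab at 1653 and 1564 CPM, Hspb1 at 267 and 282 CPM and Hsf2 at 94.6 and 102 CPM. The highest torpid animal thus had 6.74 times the Hspb1 of the lowest, 3.26 times the Cryab and 1.60 times the Hsf2. Hspb7, another small heat shock protein, spanned 10.97 to 80.5 CPM with animals 3 and 6 at its ends. Hsf1 spanned only 60.7 to 75.1 CPM and Hspb8 123 to 180 CPM, with torpid animal 4 lowest for Hsf1 and torpid animal 1 for Hspb8. All 6 were labelled as taken at the same point of torpor. Summed endothelial markers were 132 and 142 CPM in torpid animals 3 and 1, 161 and 201 CPM in animals 2 and 4, and 202 and 199 CPM in animals 5 and 6. The mean log2 CPM of the same endothelial genes was 2.64 and 2.96 in animals 3 and 1, and 2.84 and 3.65 in animals 2 and 4. In animals 5 and 6 it was 2.98 and 2.73, so its order was not that of the sums. Summed tanycyte markers were 3936 and 3375 CPM in animals 3 and 1, 4003 and 2285 CPM in animals 2 and 4, and 2981 and 2904 CPM in animals 5 and 6. Oligodendrocyte markers summed to 405 and 378 CPM in animals 3 and 1, 317 and 437 CPM in animals 2 and 4, and 287 and 304 CPM in animals 5 and 6. The part of these cells in the spread was not tested.

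**Figure D2:**
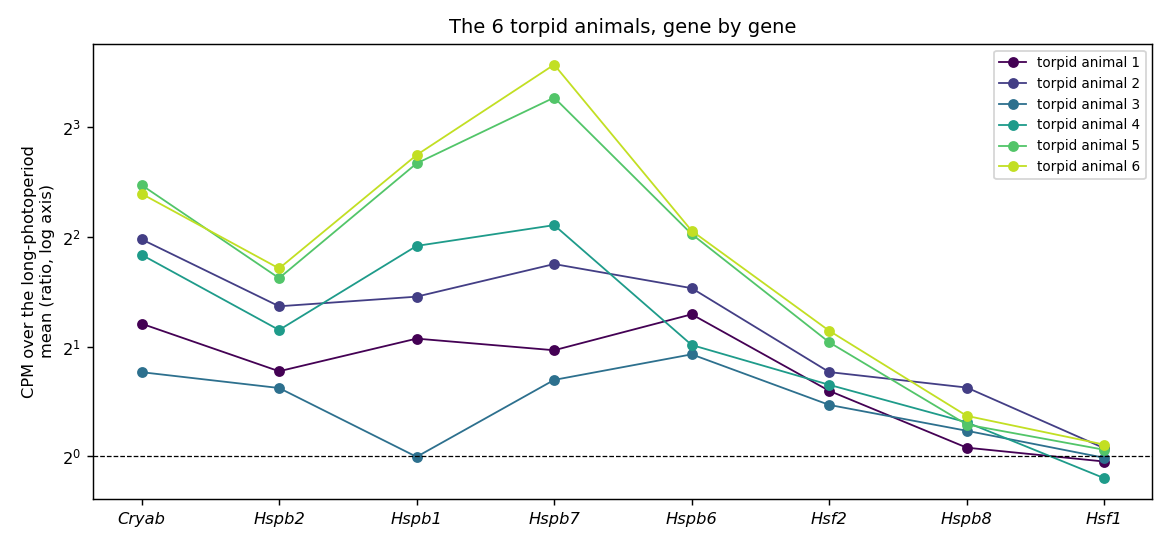
Each line is 1 of the 6 torpid animals; the vertical axis (log scale) is the CPM of the gene divided by its mean in long photoperiod, and the dashed line marks a ratio of 1. Animals 5 and 6 are highest and animal 3 lowest for Cryab, Hspb2, Hspb1, Hspb7, Hspb6 and Hsf2, while Hspb8 and Hsf1 spread little.

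Of the 10 small heat shock protein genes listed, all were in the count tables and 6 had enough reads to be tested, 4 of them besides Cryab and Hspb1. The list was drawn up with results of these data known. Hspb2 and Hspb7, best known from muscle and heart, and Hspb6 (Hsp20), which is abundant in smooth and striated muscle, rose against long photoperiod in all 4 groups between long photoperiod and the refractory state. Of all genes tested, 1.61% passed as higher at 4 weeks of short photoperiod, 2.25% in late pre-hibernation animals, 1.21% between bouts and 4.32% in torpor. Hspb8, the partner of Bag3 in clearing misfolded proteins, passed in none of these 4 comparisons. Hspb3, Cryaa, Hspb9 and Odf1 had at most 8 counts in any library and were not tested. The median log2 difference of the 4 genes from long photoperiod was 1.53 in pre-hibernation animals and 1.40 in torpid animals, against a median over all genes of 0.01 in each.

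Hspb7 was the least abundant of the 6, with 19.5 CPM per kilobase on average. It ran from 38.4 to 50.3 CPM in pre-hibernation animals, against 6.04 to 7.63 CPM in long-photoperiod animals (log2 difference 2.64 ± 0.35, adjusted p = 1.07e-05). Interbout animals held 10.6 to 44.2 CPM (1.94 ± 0.35 from long photoperiod, adjusted p = 0.00121), a call lost with long-photoperiod animals 4 to 6 alone (1.90, adjusted p = 0.0718). The interbout call of Hspb2 was lost with long-photoperiod animals 1 to 3 alone (0.94, adjusted p = 0.0780) or 4 to 6 alone (0.97, adjusted p = 0.0834). In refractory animals Hspb7 was at 12.9 ± 3.94 CPM, against 41.8 ± 5.04 CPM in late pre-hibernation animals (-1.68 ± 0.34, adjusted p = 0.00486), with no overlap.

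Hspb6 had its highest mean in another group than the rest. It averaged 114 ± 27.4 CPM in interbout animals, against 27.7 ± 5.53 CPM in long photoperiod (2.05 ± 0.20, adjusted p = 5.12e-08), and 90.3 ± 15.1 CPM in pre-hibernation animals (1.70 ± 0.20, adjusted p = 1.07e-06). The interbout mean did not differ past the threshold from that of late pre-hibernation animals, 86.7 CPM (0.40 ± 0.19, adjusted p = 0.783), nor did the torpid mean of 80.7 CPM from the interbout mean (-0.50 ± 0.19, adjusted p = 0.152). Hspb6 fell in refractory animals relative to interbout animals (46.1 ± 11.02 CPM in refractory animals; -1.31 ± 0.19, adjusted p = 0.000664), to late pre-hibernation animals (-0.91, adjusted p = 0.00637) and to torpid animals (-0.81, adjusted p = 0.00452).

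Hspb2 rose to 116 ± 19.0 CPM in pre-hibernation animals, against 45.6 ± 2.47 CPM in long photoperiod (1.35 ± 0.19, adjusted p = 1.58e-05), and in refractory animals it was at 59.7 ± 18.1 CPM. That was lower than in late pre-hibernation animals (113 ± 23.4 CPM; -0.92 ± 0.19, adjusted p = 0.0048) and torpid animals (110 ± 32.4 CPM; -0.87 ± 0.19, adjusted p = 0.00174). None of the 4 passed between refractory and long-photoperiod animals, where 0.329% of genes did; Hspb6 was nearest (0.73 ± 0.19, adjusted p = 0.0548). Hspb8 ranged from 104 to 146 CPM in the group means and passed only between refractory and torpid animals (-0.48 ± 0.15, adjusted p = 0.025), not without refractory animal 4, torpid animal 2 or torpid animal 6. Fitted with the libraries of the 2 groups alone, Hspb2 missed the threshold between refractory and late pre-hibernation animals (adjusted p = 0.0535), and Hspb6 (0.0657) and Hspb7 (0.0829) missed it between refractory and torpid animals, at nearly the same sizes.

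**Figure D3:**
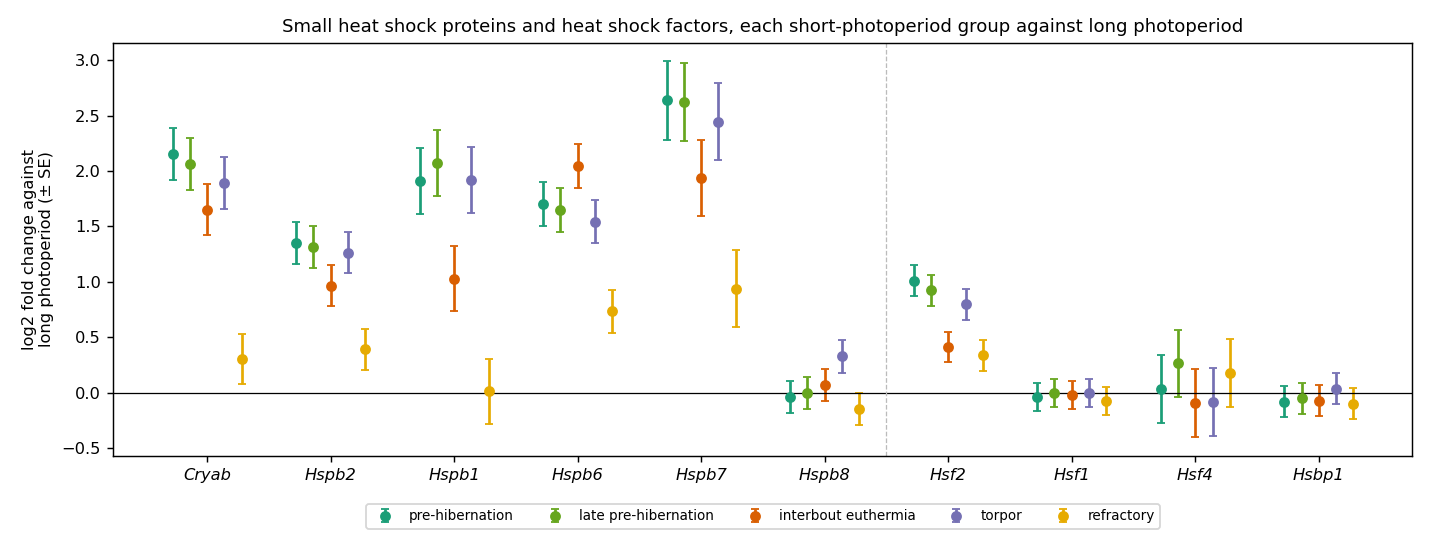
Log2 fold change (± SE) of each short-photoperiod group against long photoperiod for the small heat shock proteins (left of the dashed line) and the heat shock factors with Hsbp1 (right of it). Cryab, Hspb2, Hspb1, Hspb6, Hspb7 and Hsf2 lie above 0 in the first 4 groups, with the interbout point lowest of the 4 except for Hspb6, and the points of Hspb8, Hsf1, Hsf4 and Hsbp1 lie nearer to 0.

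Hspb2 sits head to head with Cryab. Its first exon ends at base 29417998 on the minus strand and Cryab begins at 29418088 on the plus strand, leaving 89 bases between them, and their exons do not overlap. Of 11721 genes ranked, Hspb2 was the one most correlated with Cryab over the 36 libraries (Pearson r = 0.956 and Spearman rho = 0.926 on log2 CPM), and r was 0.872 after the group means were taken out. The libraries share the groups and the depth scaling, so r is a description. Per kilobase, Hspb2 stood at a median of 6.34% of Cryab in pre-hibernation animals (5.55 to 7.75%) and 10.6% in long-photoperiod animals (8.82 to 15.3%). In refractory animals it stood at 11.7% (10.6 to 13.8%). Cryab thus differed more than its neighbour between these groups, and the ratio in refractory animals was near that of long photoperiod. Hspb1 kept a median of 12.7 to 17.3% of Cryab in 5 groups and 8.20% in interbout animals.

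**Figure D4:**
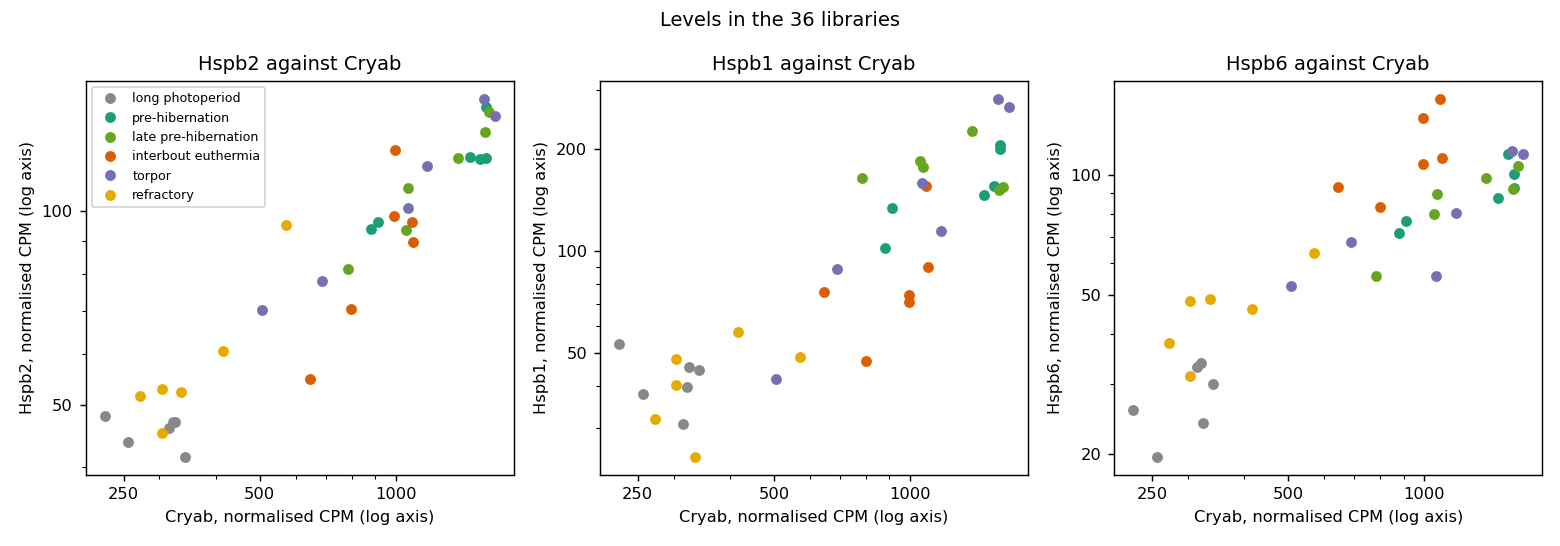
Normalised CPM of Hspb2, Hspb1 and Hspb6 against Cryab in the 36 libraries, log axes, coloured by group. Hspb2 tracks Cryab most closely (r = 0.956); the interbout animals lie low for Hspb1 and high for Hspb6 at a given Cryab level.

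The genes around the 3 loci were then read, a choice made after values were seen. Of the 5 annotated genes next in order on each side of Cryab, 9 were tested. Hspb2 and Fdxacb1 were higher in pre-hibernation, interbout and torpid animals than in long photoperiod, and in late pre-hibernation animals CUNH11orf52 was higher as well. Fdxacb1 begins 10698 bases beyond Cryab, with CUNH11orf1 between them, and it is also among the genes most correlated with Hsf2 below. It held 18.6 ± 2.47 CPM in pre-hibernation animals, against 5.55 ± 1.12 CPM in long photoperiod (1.75 ± 0.23, adjusted p = 6.24e-06). In refractory animals Fdxacb1 was at 9.90 ± 4.06 CPM, 0.88 ± 0.22 above long photoperiod (adjusted p = 0.053). CUNH11orf52, 6085 bases before Cryab and on the far side of Hspb2, held 8.61 ± 1.44 CPM in late pre-hibernation animals and 4.91 ± 1.20 CPM in long photoperiod (0.81 ± 0.24, adjusted p = 0.0485), a call lost in 10 of 12 refits without 1 library (it held without long-photoperiod animal 3 or late pre-hibernation animal 4). The interbout call of Fdxacb1 was lost with long-photoperiod animals 4 to 6 alone (1.05, adjusted p = 0.123). CUNH11orf1, Dixdc1, Dlat, Pih1d2, Alg9 and Ppp2r1b passed in none of the 12 comparisons. Of the 7 tested neighbours of Hspb1 none was higher in any comparison and Srrm3 and Tmem120a were each lower in 1, and of the 4 of Hsf2 only Fabp7 passed, lower in late pre-hibernation and torpid animals than in long photoperiod.

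**Figure D5:**
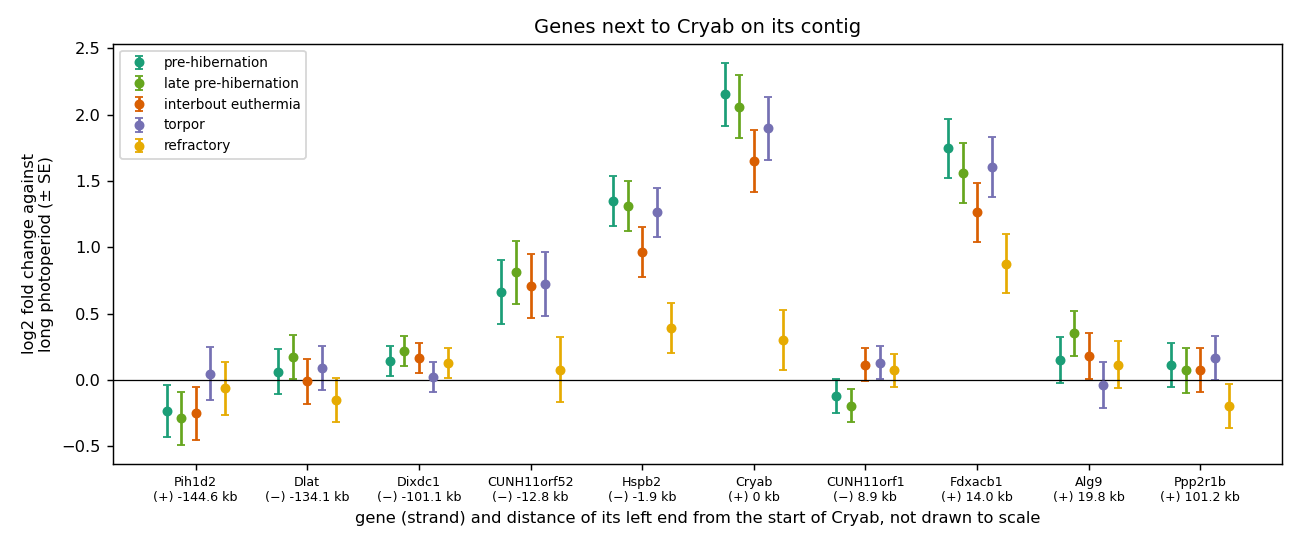
Log2 fold change (± SE) against long photoperiod of Cryab and its 9 tested neighbours in their order along the contig, with strand and distance from the start of Cryab under each name (spacing not to scale). Hspb2, Cryab and Fdxacb1 stand above the rest in the first 4 groups, with CUNH11orf1, between Cryab and Fdxacb1, near 0.

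None of the other heat shock factors tested passed against long photoperiod. Hsf1 averaged 65.7 to 69.8 CPM in the 6 groups and passed in no comparison; its exons overlap those of LOC121136245, so some reads could not be assigned between them. Hsf4, the factor known from the lens, averaged 5.75 to 7.38 CPM and passed in none. Hsbp1, a small protein that binds heat shock factors, averaged 481 to 529 CPM and passed in none. Hsf5, known from the testis, stayed under 1 CPM in the group means and passed between torpid and late pre-hibernation animals (0.728 CPM in torpid animals and 0.264 CPM in late pre-hibernation animals; adjusted p = 0.0468), but in only 2 of 12 refits without 1 library, those without late pre-hibernation animal 1 or torpid animal 4.

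Of 95 listed chaperone, stress and filament genes tested besides the 3, only Hspb2, Hspb6 and Hspb7 passed against long photoperiod in pre-hibernation, late pre-hibernation and interbout animals (3.16%, against 2.29%, 3.58% and 1.85% of all genes). None of 12 HSP70 and HSP110 genes and none of 12 genes of the HSP90 group passed in these comparisons or between torpid and long-photoperiod animals. Torpid animals added 10 genes against long photoperiod, 3 of them higher (13 of 95 in all, against 9.05% of all genes). The largest was Dnajb5, a cochaperone of HSP70, at 39.2 ± 12.8 CPM in torpid animals and 11.7 ± 1.66 CPM in long photoperiod (1.75 ± 0.21, adjusted p = 7.46e-07). Of 16 listed genes of its family (HSP40), Dnajb5 alone passed as higher there. Another 3, Dnajb1, Dnajb9 and Dnajb14, passed as lower, where 4.73% of all genes did. The Dnajb14 call was lost with long-photoperiod animals 4 to 6 alone (adjusted p = 0.299). Dnajb5 was also higher in torpid than in interbout animals, which had 12.2 ± 3.35 CPM (1.67 ± 0.21, adjusted p = 2.25e-06), where 7 of the 95 passed (7.37%), 3 higher and 4 lower. The other 2 that were higher, Bag5 (0.54, adjusted p = 0.00885) and Hsph1 (0.70, adjusted p = 0.0447), help HSP70 exchange its nucleotide. The Hsph1 call was lost in 10 of 12 refits without 1 library (adjusted p up to 0.226; it held without interbout animal 6 or torpid animal 6), and that of Bag5 without torpid animal 2 (adjusted p = 0.0645). The 4 lower were Dnajb14, Mapk14, Map2k3 and Mapkapk5. The call of Map2k3 was lost in 5 of 12 refits without 1 library (adjusted p up to 0.0709). Without interbout animal 6 those of Mapk14 and Dnajb14 were lost (adjusted p = 0.0575 and 0.0731). That of Dnajb14 was also lost with neuron and oligodendrocyte markers as covariates (adjusted p = 0.0632). Mapkapk5, a kinase of the p38 route, was lower in torpid than in interbout animals (-0.44 ± 0.09, adjusted p = 0.003). It averaged 13.5 ± 0.59 CPM in torpid animals and 18.3 ± 2.38 CPM in interbout animals. Between refractory and torpid animals 20% of the 95 passed, against 15.2% of all genes. There 2 HSP70 or HSP110 genes and 1 of the HSP90 group were lower, as were 6.11% of all genes.

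The 10 kinase genes listed were those of the p38 route to small heat shock proteins and, besides them, Prkd1. Of the 10, 4 passed as lower in torpid than in long-photoperiod animals and none as higher. Of all genes, 4.73% were lower there. Mapkapk2 and Mapkapk3 were on the list and did not pass. The list's median log2 difference was -0.15, against 0.01 over all genes, and the genes below are named after their values were seen. Prkd1, protein kinase D, averaged 7.74 CPM in torpid animals and 12.4 CPM in long-photoperiod animals (-0.67 ± 0.16, adjusted p = 0.00475), and it passed under every alternative run. Mapkapk5 (-0.39 ± 0.09, adjusted p = 0.00476) missed the threshold with long-photoperiod animals 1 to 3 alone (adjusted p = 0.0848). Map2k3, which activates p38, averaged 9.38 CPM in torpid animals and 15.5 CPM in long-photoperiod animals (-0.72 ± 0.19, adjusted p = 0.0131). It missed the threshold with long-photoperiod animals 1 to 3 or 4 to 6 alone (adjusted p = 0.0710 and 0.0620). Mapk14, the p38 alpha kinase, averaged 23.2 CPM in torpid animals and 31.7 CPM in long-photoperiod animals (-0.45 ± 0.15, adjusted p = 0.0451). The Mapk14 call was lost in 8 of 12 refits without 1 library (adjusted p up to 0.175), those without long-photoperiod animal 1, 3 or 5 or torpid animal 1, 2, 3, 5 or 6, and its difference was -0.28 with long-photoperiod animals 4 to 6 alone.

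In refractory animals Mapk14 (34.7 CPM), Map2k3 (15.2 CPM), Prkd1 (12.6 CPM) and Mapkapk5 (17.0 CPM) were higher than in the same torpid animals (adjusted p from 0.00541 to 0.0145), where 9.07% of all genes were higher. Mapk11, another p38 kinase, was lower there (7.92 CPM in refractory and 13.9 CPM in torpid animals; -0.77 ± 0.21, adjusted p = 0.0129), but not without torpid animal 6 (adjusted p = 0.0552). None of these 5 passed with the libraries of the 2 groups fitted alone (adjusted p from 0.0577 to 0.109). None of the 10 passed in pre-hibernation animals against long photoperiod.

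The genes whose log2 CPM was most correlated with each of the 3 over the 36 libraries were named, with the same caution about shared groups and scaling. For Cryab they were Hspb2, Tgfb1i1 (r = 0.944), Cited1 (0.918), Bcam (0.916) and Lgals1 (0.913). Cited1 was at 1116 CPM in pre-hibernation animals and 352 CPM in refractory animals, against 201 CPM in long photoperiod. For Hspb1 they were Irs4 (0.898), Mmd (0.896), Tesc (0.893), Cryab (0.892) and Dhrs7c (0.892). Irs4, an adaptor of insulin receptor signalling, was at 283 ± 221 CPM in torpid animals, where Hspb1 was at 159 ± 97.4 CPM. For Hsf2 they were Mmd (0.918), Grb2 (0.905), Abr (0.904), Fdxacb1 (0.898) and Nudt12 (0.873). Cryab and Hsf2 had r = 0.798, which was 0.424 after the group means were taken out, and Hspb1 and Hsf2 had 0.834 and 0.522.

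Markers of tanycytes, astrocytes and other cells were read beside these results. Summed tanycyte markers had medians from 2824 CPM in refractory to 3635 CPM in interbout animals (3463 CPM in long photoperiod). Astrocyte markers summed to 3510 to 4326 CPM in pre-hibernation and 4053 to 5321 CPM in long-photoperiod animals. Their mean log2 CPM had r = 0.28 (tanycyte) and -0.25 (astrocyte) with Cryab, and that of ependymal markers -0.45. With group means taken out r was 0.10, -0.28 and -0.36. The part of these cells was not tested. Endothelial markers (9 genes, none at 0 in any library) summed to 164 to 217 CPM in pre-hibernation and 182 to 227 CPM in late pre-hibernation animals, above the 110 to 161 CPM of long photoperiod, with interbout (134 to 250.2), torpid (132 to 202) and refractory animals (138 to 185) overlapping it. Of the 9, Kdr and Esam rose in the same 4 groups as the small heat shock proteins, and the others passed in none of these 4 comparisons. The median log2 difference of the 9 from long photoperiod was 0.04 in pre-hibernation and 0.23 in late pre-hibernation animals. It was -0.10 in interbout and 0.09 in torpid animals. Esam averaged 34.5 CPM in pre-hibernation animals and 17.3 CPM in refractory animals, against 9.41 CPM in long photoperiod. The part of endothelial cells in the results was not tested. Over the 36 libraries the mean log2 CPM of the markers had r = -0.09 with Cryab, and -0.28 after the group means were taken out. Muscle and mural cell markers (11 genes, at most 1 at 0) summed to 96.6 to 146 CPM in the first 4 short-photoperiod groups and 103 to 143 CPM in long photoperiod. They summed to 142 to 154 CPM in 5 refractory animals and 269 CPM in the rRNA-rich animal 4, in a group where Hspb2, Hspb6 and Hspb7 were lower. Pituitary markers (9 genes, of which Fshb, Pou1f1, Pitx1 or Gh1 were at 0 in some libraries) summed to 76.0 to 618 CPM in the first 4 short-photoperiod groups (medians 104 to 109 CPM) and 108 to 1833 CPM in refractory animals (median 304 CPM), against 167 to 2404 CPM in long photoperiod (median 398 CPM). That is the opposite direction to Cryab (r = -0.70, and -0.21 after the group means were taken out). Oligodendrocyte markers (10 genes) overlapped in range between all groups. Their mean log2 CPM had r = -0.43 with Cryab, and -0.52 after the group means were taken out. With the neuron and oligodendrocyte markers as covariates the refractory difference of Cryab from late pre-hibernation animals was -1.69. The part of oligodendrocytes in the results was not tested.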

How the data were processed

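Gene counts deposited by the authors, 1 table per library, were used as they stand. Per the file headers, read pairs were counted with featureCounts 2.0.1 over exons summed by gene, unstranded, on the RefSeq annotation of BCM_Maur_2.0; alignment file names carry the name STAR, with no version. Per the labels, RNA integrity numbers were 7 to 9 and BGI built the libraries. Of 32340 genes, 31895 matched a RefSeq name.

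From these counts, 1 robust quasi-likelihood model of all 36 libraries was fitted with edgeR 4.0.16 (R 4.3.3), after filterByExpr (17926 genes) and TMM scaling. Adjusted p are Benjamini-Hochberg over those genes, with 0.05 as threshold, and come from this fit unless another tool is named. Totals of 5161108 to 28541745 counts per library set the precision. SE come from the fit, and log2 CPM use a prior count of 2. The fit was tested on simulated data.

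The members and gene lists were chosen with earlier results of these data known. Members were tested only among the 4 groups from late pre-hibernation on. Genes named beyond the family are the 5 most correlated with each member (mean log2 CPM of at least 1) and the 3 listed genes with the smallest p in each comparison, besides any the text says were chosen otherwise. Alternatives were RLE scaling, 2 other filters, the replicate block, marker covariates, the 2 groups alone, omission of the 3 rRNA-rich libraries, parts of the long-photoperiod group, DESeq2 1.42.0, and leaving out each library. No 2 count tables were identical.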

Additional observations from a re-analysis of the deposited data

Results flagged for a closer look

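Among 42 combinations of the 6 small heat shock protein genes tested, Hsf2 and the 6 groups, 3 held an animal whose gap to its neighbour exceeded the critical share of the range (0.625 for 6 samples), which chance gives in about 1 of 20 groups. Hsf2 was at 29.5 CPM in refractory animal 4, the smallest and most rRNA-rich library, with the next refractory animal at 55.6 CPM. Hspb2 was at 95.3 CPM in refractory animal 6, with the next at 60.6 CPM; the same animal had the highest refractory Cryab (572 CPM). Hspb8 was at 139 CPM in late pre-hibernation animal 4, with the next at 116 CPM; the same animal had the lowest Cryab of its group (783 CPM).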

How the results depend on the processing

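In the tested comparisons, 325 of 360 refitted values for Cryab, Hspb1 and Hsf2 kept their direction and their side of the threshold. Of 390 refitted differences from long-photoperiod or pre-hibernation animals, given with no test, the sign turned in 11: 9 of 22 for Hspb1 between refractory and long-photoperiod animals (-0.10 to 0.11) and 2 of 20 for Cryab between late and early pre-hibernation animals (-0.18 to 0.03). Refits of the other named genes were added after seeing the data: with no filter on low counts Bag5 and Hsph1 (torpid against interbout), Hspb8 and Mapkapk5 (refractory against torpid), Des and Lmna (torpid against long photoperiod), Hsf5 and CUNH11orf52 also missed the threshold, and Mapk14 (torpid against long photoperiod) missed it with RLE scaling, the 1 CPM filter, the block or covariates. Hspb1 between refractory and interbout animals lost its call with a filter of at least 1 CPM in 6 libraries (-0.997, adjusted p = 0.0571), with the replicate block (-0.99, 0.0799), with marker covariates (-0.92, 0.108), with the 2 groups alone (-1.02, 0.240) and without the rRNA-rich libraries (-0.66, 0.224); over the fits leaving out 1 library it ran from -1.14 to -0.76. The block changed no other call of the 3 genes. The samples share only a number: same-numbered libraries correlated from -0.329 to 0.481 in their deviations from the group means, over 0.1 in 18 of 72 pairs. With the 2 groups alone Hsf2 lost its calls between refractory and late pre-hibernation (-0.59) and torpid animals (-0.47); leaving out 1 library, it ran from -0.64 to -0.47 and from -0.51 to -0.32. Between torpid and interbout animals Hspb1 and Hsf2 passed with covariates (1.03 and 0.49), without the rRNA-rich libraries (1.13 and 0.41) and with DESeq2 (0.89 and 0.38), and Hspb1 ran from 0.64 to 1.14 leaving out 1 library. Between interbout and late pre-hibernation animals Hspb1 (-1.30) and Hsf2 (-0.56) passed without the rRNA-rich libraries, and Hsf2 with DESeq2 (-0.51). The sign of Hsf2 between refractory and interbout animals turned with covariates (0.032), without the rRNA-rich libraries (0.088) and without refractory animal 4 (0.054; range -0.13 to 0.05), and that of Hspb1 between torpid and late pre-hibernation animals without torpid animal 3 (0.039; range -0.40 to 0.04). The causes were not tested. All genes called between interbout and late pre-hibernation animals numbered 0, 153 without the rRNA-rich libraries and 33 with DESeq2; between torpid and interbout animals 728, 1601 and 1131. Depth limits Hspb1 and Hsf2 most in refractory animal 4, with 72 and 86 counts.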

Other observations

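Of 9 intermediate filament genes tested, whose proteins small heat shock proteins are known to bind, Des (desmin) and Lmna (lamin A/C) passed as higher in torpid than in long-photoperiod animals. Of all genes tested, 4.32% were higher there. Des averaged 2.58 CPM in torpid animals and 1.43 CPM in long-photoperiod animals (0.85 ± 0.25, adjusted p = 0.0229). The Des call was lost in 4 of 12 refits, those without torpid animal 2, 5 or 6 or long-photoperiod animal 1. It was also lost with long-photoperiod animals 1 to 3 alone (0.98, adjusted p = 0.0759) or 4 to 6 alone (0.70, adjusted p = 0.219). Lmna averaged 177 CPM in torpid animals and 131 CPM in long-photoperiod animals (0.43 ± 0.13, adjusted p = 0.031). The Lmna call was lost in 8 of 12 refits, those without torpid animal 2, 5 or 6 or long-photoperiod animal 1, 2, 3, 4 or 5 (adjusted p up to 0.127). It was also lost with long-photoperiod animals 1 to 3 alone (0.50, adjusted p = 0.101) or 4 to 6 alone (0.34, adjusted p = 0.385).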
